A study of Mus musculus with 12 samples.

Results

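The 9 genes described here encode the chromatin remodeller ATRX, its partner DAXX, 3 subunits of the HIRA complex, both ASF1 histone chaperones and the histone variant H3.3. They were taken by symbol from a table of 31641 gene symbols: Atrx, Daxx, Asf1a, Asf1b, Hira, Ubn1, Cabin1, H3f3a and H3f3b. Each symbol had 1 row, and all 9 passed the filter on low counts. Messenger RNA levels were measured by RNA-seq in 4 lines of mouse embryonic stem cells, the pluripotent cells derived from the blastocyst. WT-1 and WT-2 are wild type, and Mut-1 and Mut-2 carry Tin2 S341X, an allele of Tinf2, which encodes the telomere-binding protein TIN2. The series title names the question, which is how TIN2 deficiency relates to ALT-associated phenotypes and to differentiation. All 4 lines are C57BL/6 and were grown without any further treatment on mouse embryonic fibroblast feeders in medium with serum and LIF, a cytokine that maintains pluripotency. RNA came from the whole culture, and every library can therefore hold feeder RNA. Each line gave 3 libraries, 12 in all, which the submitters call technical replicates. The sources used here do not give whether a line is 1 clone, whether the allele is on both chromosomes or how a line was split into libraries. Comparisons between libraries of 2 lines therefore measure only the spread within a line, which may be technical.

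Histone H3.3 is the H3 variant that is placed into chromatin outside DNA replication. ATRX and DAXX deposit it at telomeres and other repeats, and the HIRA complex, with UBN1 and CABIN1, deposits it at active genes. ASF1A and ASF1B carry H3-H4 dimers for deposition by the HIRA complex and by CAF-1, which assembles chromatin behind the replication fork. Loss of ATRX or DAXX is frequent in tumours that maintain telomeres by recombination, the pathway called alternative lengthening of telomeres (ALT), and depletion of ASF1 has been reported to induce features of ALT in cultured human cells.

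H3.3 is encoded by 2 genes whose coding sequences differ only at silent positions. The sequences are shown because those positions separate reads of the coding part, and the rest of the transcripts was not compared. On GENCODE M21 (GRCm38) the coding sequences of H3f3a and H3f3b are 411 bases each, translate to the same protein and differ at 95 bases (76.9% identical). The longest run shared by both was 23 bases. The first 120 coding bases are shown from the start codon, with the 24 bases that differ between the genes in capitals.
H3f3a: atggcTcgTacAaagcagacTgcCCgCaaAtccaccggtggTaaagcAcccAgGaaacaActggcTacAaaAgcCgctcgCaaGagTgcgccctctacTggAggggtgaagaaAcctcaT
H3f3b: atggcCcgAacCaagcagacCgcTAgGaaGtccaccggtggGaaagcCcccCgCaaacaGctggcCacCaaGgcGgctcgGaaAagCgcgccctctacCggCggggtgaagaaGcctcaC
The capitals fall every few bases, and any stretch of over 23 coding bases holds at least 1 difference between the genes. The table also has rows for near-identical copies of H3f3a. H3f3a.ps1, H3f3a.ps2 and H3f3c are 98.1%, 98.8% and 99% identical to the H3f3a coding sequence. They held 32 to 74, 3 to 12 and 5 to 18 counts per library. The handling of reads shared with these copies is not given in the sources used here, so the H3f3a level is uncertain to that extent.

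Library totals ran from 14766477 to 17891894 counts, and counts for the 9 genes from 221 (a Hira value) to 31906 (an H3f3b value) per library. Levels are CPM, the read counts scaled to library size after TMM normalization. As a check of the labels, Tinf2 stood at 64.2 and 61.1 CPM in the wild-type lines 1 and 2, and at 24.8 and 26.1 CPM in the mutant lines 1 and 2. The 10 pluripotency markers were detected and summed to 6228 to 7242 CPM in wild-type and 5601 to 7063 CPM in mutant libraries. The 30 fibroblast feeder markers summed to 6682 to 9221 CPM in wild-type and 7465 to 15825 CPM in mutant libraries. The 10 endoderm markers summed to 352 to 456 against 376 to 654 CPM, and the 6 blood markers to 33.3 to 55.3 against 37.2 to 61.1 CPM. No marker of these lists was at 0 in every library. The feeder share of the counts was highest in Mut-1 replicate 1 (1.67%), Mut-2 replicate 2 (1.55%) and Mut-2 replicate 1 (1.44%), and reached 0.92% in the wild-type libraries. Fits without these 3 libraries lose mutant libraries only, among them both mutant libraries numbered 1, and keep 1 library of Mut-2. In those fits feeder share and library number cannot be told apart. WT-1 replicates 1 and 2 stood close together, with a chi-square per degree of freedom of 1.66, where other pairs of libraries within a line gave 12 to 42.5.

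All 9 genes were expressed, and H3f3b was the most abundant by a wide margin. Per kilobase of exon, H3f3b was at 422 ± 105 CPM per kb (mean ± SD over 4 lines) and H3f3a at 35.3 ± 0.735. Daxx followed at 26.9 ± 2.45, Atrx at 15.3 ± 0.918 and Asf1b at 12.3 ± 2.83 CPM per kb. Cabin1, Asf1a, Ubn1 and Hira were lowest, at 7.21 ± 0.668, 6.69 ± 0.706, 5.84 ± 0.873 and 3.0 ± 0.250 CPM per kb. Along this order the 12-library ranges of neighbours were apart at only 2 steps. H3f3b (305 to 665 CPM per kb) lay above H3f3a (29.6 to 43.4), and Daxx (22.2 to 34.3) above Atrx (10.4 to 18.4). All other neighbours overlapped. The lengths are unions of all annotated exons, 21.8 kb for Atrx and 3.15 kb for Daxx, and the transcripts in use were not determined. In CPM alone Atrx (334) was above Daxx (84.8), so the order of these 2 genes depends on the length used.

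**Figure D1:**
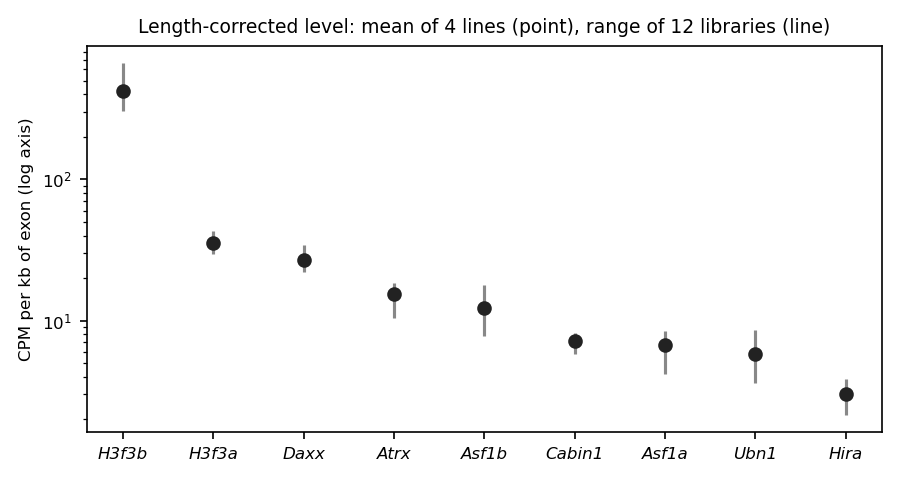
Level of each of the 9 genes in CPM per kilobase of exon, on a log axis. Points are means of the 4 lines, and vertical lines are ranges of the 12 libraries. H3f3b stands alone, at 305 CPM per kb or more in every library, and Hira lies lowest, between 2.15 and 3.86.

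No gene of the 9 passed the test for genotype. Nor did Tinf2, although it was lower in both mutant lines and ranked 1 of 18749 by p (adjusted p = 0.0652 by edgeR). A gene that did not pass is therefore not shown to be unchanged. On line totals, 2 mutant against 2 wild-type lines, edgeR's quasi-likelihood test called 0 of 9 at an adjusted p under 0.05, and 0 of 18749 genes tested (0%), where 2447 were at an unadjusted p under 0.05 and DESeq2 called 360. At an unadjusted p under 0.05 it marked 1 of the 9, Asf1b, which was lower in the mutant lines, where 3.88% of all genes were marked as lower and 9.17% as higher. The log2 fold change was below 0 for 6 of the 9, as for 50.2% of all genes, with a median of -0.11, against -0.00 over all genes tested, of which the central 80% lay between -0.31 and 0.56.

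**Figure D2:**
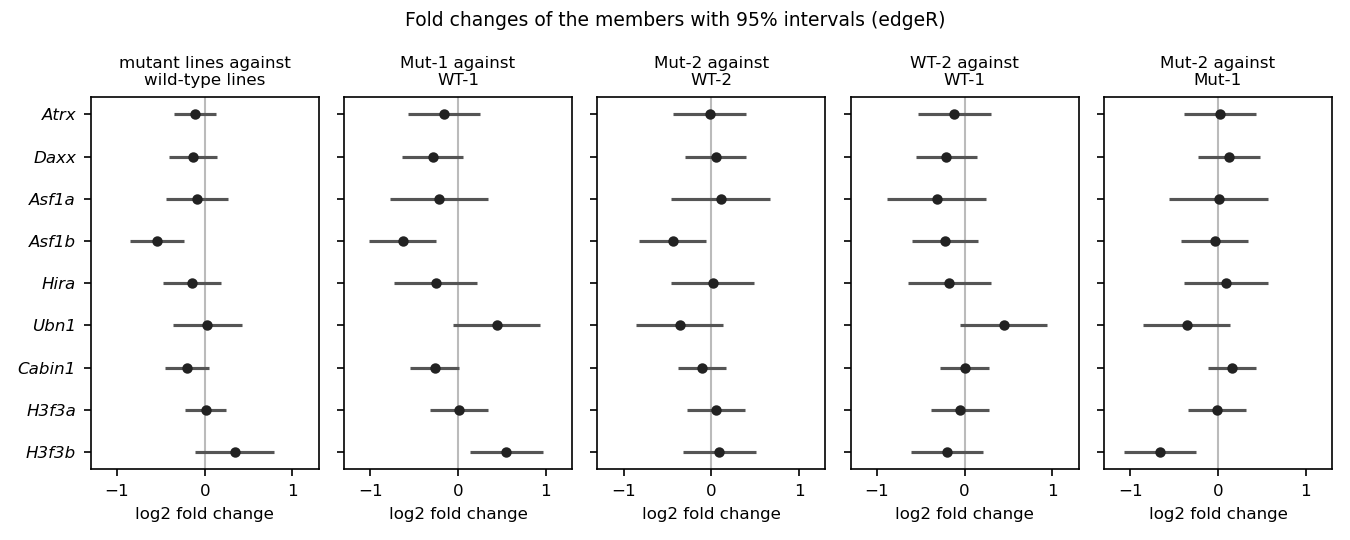
Log2 fold change of each gene with its 95% interval (bars), in 5 panels: mutant against wild-type line totals, Mut-1 against WT-1, Mut-2 against WT-2, WT-2 against WT-1 and Mut-2 against Mut-1. The Asf1b interval lies below 0 in the first 3 panels, H3f3b is at 0.55 in the first pair of lines and 0.09 in the second, and H3f3a stays near 0.

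Atrx, the SNF2-family ATPase of the pair, lies on the minus strand at chrX:105797615-105929403 (GRCm38). In replicates 1, 2 and 3 it was at 349, 335 and 395 CPM in WT-1 and at 226, 367 and 401 CPM in WT-2. Mut-1 gave 306, 373 and 288 CPM, and Mut-2 gave 273, 360 and 348 CPM. The genotypes overlapped, and the lowest value of all was a wild-type library, WT-2 replicate 1. Line totals averaged 346 ± 23.3 CPM in wild-type and 321 ± 6.16 CPM in mutant lines (SD, n = 2 lines each). The log2 fold change was -0.11 (SE 0.10, 95% interval -0.35 to 0.13, adjusted p = 0.703 by edgeR). It was -0.21 without WT-2 replicate 1, -0.037 without Mut-2 replicate 1 and -0.026 with the 3 libraries of most feeder RNA left out. These are values of RNA, not of ATRX protein.

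Daxx, the H3.3-specific chaperone that binds ATRX, lies on the plus strand at chr17:33909414-33915590. Its replicates were at 107, 108 and 70.1 CPM in WT-1 and at 71.2, 86.8 and 88.6 CPM in WT-2. Mut-1 gave 73.3, 78.1 and 82.3 CPM, and Mut-2 gave 75.6, 85.0 and 94.5 CPM. WT-1 replicates 1 and 2 were the 2 highest libraries, WT-1 replicate 3 was the lowest, and the others overlapped. The line totals gave 88.7 ± 9.41 CPM against 80.9 ± 5.34 CPM and a log2 fold change of -0.13 (SE 0.12, 95% interval -0.41 to 0.14, adjusted p = 0.675 by edgeR). It was -0.0093 with the feeder share in limma-voom, -0.015 with the 3 libraries of most feeder RNA left out, and -0.077 or -0.076 without WT-1 replicate 1 or 2.

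Asf1b was the gene of the 9 with the most regular difference between genotypes, although it did not pass the adjusted test. ASF1B is the ASF1 paralog whose RNA is highest in proliferating cells. The gene lies on the plus strand at chr8:83955507-83970197. In WT-1 it was at 40.9, 41.4 and 28.2 CPM and in WT-2 at 33.2, 30.7 and 30.5 CPM. The 3 values of Mut-1 were 26.0, 18.2 and 27.1 CPM, and those of Mut-2 were 23.0, 22.0 and 24.4 CPM. Every mutant library was thus below every wild-type library, by a small margin between WT-1 replicate 3 and Mut-1 replicate 3. Asf1b was the 1 gene of the 9 whose libraries separated in this way, and 0.645% of all genes tested separated with the mutant lower and 1.33% with the mutant higher. Line totals averaged 34.2 ± 3.86 CPM in wild-type and 23.4 ± 0.405 CPM in mutant lines (SD, n = 2 lines each), 0.685-fold. The log2 fold change was -0.55 (SE 0.13, 95% interval -0.85 to -0.24), with an unadjusted p of 0.00364 and an adjusted p of 0.220 by edgeR, and it ranked 303 of 18749 by p.

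**Figure D3:**
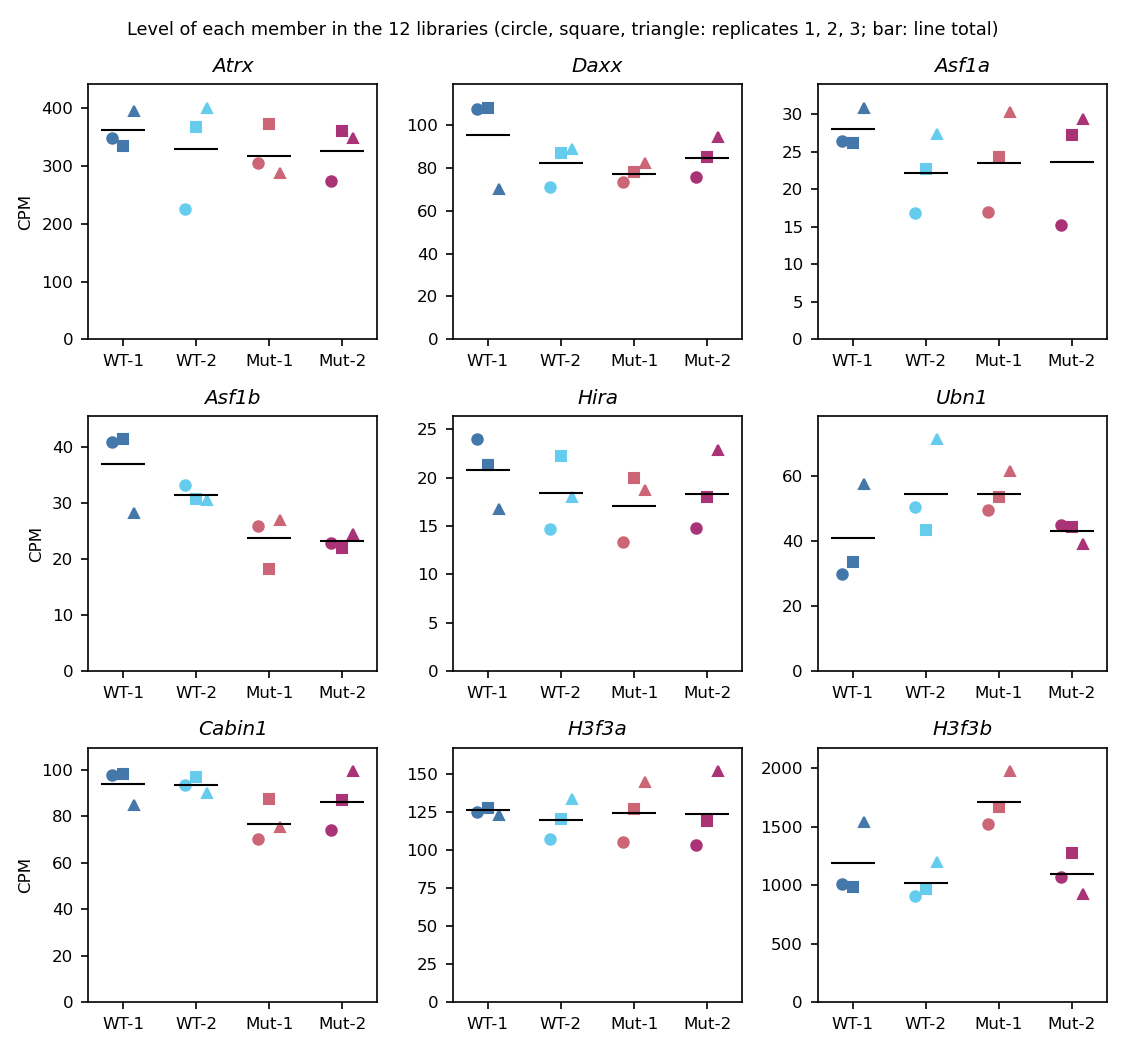
CPM of the 9 genes in each of the 12 libraries, with 1 panel per gene, lines on the horizontal axis, marker shapes for replicates 1 to 3 and bars for line totals; each axis starts at 0. The 6 Asf1b mutant points (18.2 to 27.1) lie below the 6 wild-type points (28.2 to 41.4), while the points of the other 8 genes overlap.

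The call for Asf1b differed between tests. On the same line totals it passed with DESeq2 (log2 fold change -0.56, adjusted p = 0.0362), which called 2.6% of its genes. Fits with the 12 libraries as units treat technical replicates of 2 lines per genotype as independent or nearly so, and can overstate the evidence. In such fits Asf1b passed with edgeR (-0.54, adjusted p = 0.0425, 2.34% of genes called) and with edgeR and a replicate block (-0.55, adjusted p = 0.0382, 3.29%). It also passed with limma-voom (-0.55, adjusted p = 0.0476, 1.44%). It did not pass in limma-voom once the feeder share entered as a covariate (-0.52, adjusted p = 0.289). That fit called 35 genes in all, where limma-voom without the covariate called 226. Nor did Asf1b pass in edgeR on line totals when the 3 most feeder-rich libraries were left out (-0.53, adjusted p = 0.689). On line totals the log2 fold change was -0.55 with all 12 libraries and -0.53 without those 3. The second fit kept 1 library of Mut-2.

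Genes of chromosome 8, as a group, differed between some of the lines. The median of 597 genes on chromosome 8 was lower in the mutant lines by a log2 shift of -0.15 relative to the other autosomes. For Mut-1 against WT-1 the shift was -0.05, and for Mut-2 against WT-2 it was -0.23. For Asf1b itself these pairs gave -0.63 and -0.44. Between the wild-type lines chromosome 8 was 0.18 higher in WT-2, where Asf1b was at -0.23. The part of the chromosome's shift in the Asf1b value was not tested.

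The Asf1b promoter is shown because Asf1b was the one gene of the 9 whose libraries separated by genotype, and H3f3b's because it varied most between the mutant lines. RefSeq windows of 300 bases, from 250 before to 50 after the start, were read on GRCm38.p6 in the direction of the gene. Capitals mark CCAAT in either orientation (CCAAT or ATTGG), the box bound by NF-Y, and TTTGAA, a core of the CHR element found in many cell cycle promoters. Asf1b is at chr8:83955444-83955743 (+) and H3f3b at chr11:116024455-116024754 (-).
Asf1b: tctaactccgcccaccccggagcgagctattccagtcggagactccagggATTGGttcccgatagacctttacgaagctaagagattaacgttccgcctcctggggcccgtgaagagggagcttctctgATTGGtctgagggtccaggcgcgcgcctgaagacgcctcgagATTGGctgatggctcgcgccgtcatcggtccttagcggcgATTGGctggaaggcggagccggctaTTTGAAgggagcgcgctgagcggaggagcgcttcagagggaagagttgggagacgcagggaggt
H3f3b: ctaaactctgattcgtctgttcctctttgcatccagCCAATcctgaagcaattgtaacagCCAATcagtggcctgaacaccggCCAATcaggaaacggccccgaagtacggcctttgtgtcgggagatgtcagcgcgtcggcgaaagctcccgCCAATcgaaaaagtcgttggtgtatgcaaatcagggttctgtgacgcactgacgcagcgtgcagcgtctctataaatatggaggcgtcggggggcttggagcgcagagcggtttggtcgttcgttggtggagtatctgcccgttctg
Each window holds 4 CCAAT boxes on either strand, a number reached by 1.06% of 32851 RefSeq windows, and 1 box or more was found in 37.4%. The Atrx window also holds 4, Cabin1 and Ubn1 hold 2 each, H3f3a and Asf1a 1 each, and Hira none, while 1 of 3 Daxx windows holds 1. In Asf1b a TTTGAA match, searched on both strands, starts 14 bases before the start. It was the only such match among the 9 genes, and 17.9% of all windows have one. The H3f3b window has TATAAA 27 bases before the start, a motif in 13.6% of windows on either strand. These are matches of letters, not measured binding, and their positions are counted from RefSeq starts. GENCODE begins Asf1b at 83955507, inside its window, and H3f3b at 116027962, upstream of its window.

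Asf1a, the paralog that works mainly with HIRA, lies on the plus strand at chr10:53596757-53609225, wholly within the opposite-strand gene Mcm9, whose row held 224 to 332 counts per library. Since the strand setting of the counting is not given in the sources used here, reads of the 2 genes may not be told apart. Asf1a was at 26.4, 26.2 and 30.9 CPM in WT-1 and at 16.9, 22.6 and 27.3 CPM in WT-2. Mut-1 gave 17, 24.3 and 30.2 CPM, and Mut-2 gave 15.3, 27.3 and 29.4 CPM. The library numbered 1 was the lowest of its line in WT-2, Mut-1 and Mut-2, and the genotypes overlapped throughout. Line totals gave 25.1 ± 4.18 CPM against 23.6 ± 0.0546 CPM and a log2 fold change of -0.09 (SE 0.15, 95% interval -0.44 to 0.26, adjusted p = 0.843 by edgeR). With the 3 most feeder-rich libraries left out the sign turned, to 0.19. Replicate 1 of both mutant lines was among them, so feeder share and library number cannot be told apart here.

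The balance of the 2 ASF1 genes was also read as a ratio of their counts. The ratio of Asf1b to Asf1a counts was 1.32 in WT-1 and 1.42 in WT-2, and 1.01 in Mut-1 and 0.980 in Mut-2, from line totals. By library it ran from 0.913 to 1.96 (median 1.45) in wild-type and from 0.750 to 1.53 (median 0.863) in mutant cultures. The lines were apart, but the libraries overlapped: replicate 1 of both mutant lines, at 1.53 and 1.5, reached wild-type values. The ratio moved with Asf1a too, since these 2 libraries and WT-2 replicate 1, which had the highest ratio, held the least Asf1a. No test was made of this ratio.

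**Figure D4:**
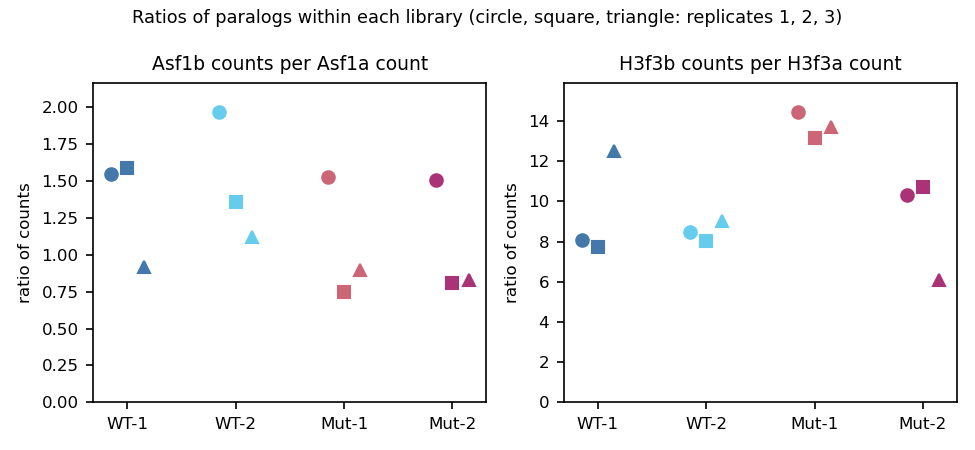
Count ratios of Asf1b to Asf1a and of H3f3b to H3f3a in each library of the 4 lines, with marker shapes for replicates 1 to 3 and axes from 0. Asf1b to Asf1a runs from 0.913 to 1.96 in wild-type and from 0.750 to 1.53 in mutant libraries, and Mut-1 stands highest in H3f3b to H3f3a at 13.2 to 14.4.

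Of the 3 HIRA complex genes, none passed the adjusted test for genotype, which 0 of 18749 genes passed. Hira, its namesake subunit, lies at chr16:18877037-18970309 (+). It shares 79211 bases of its locus with Gm28539 on the same strand, a gene not analysed here. Hira was at 24.0, 21.3 and 16.8 CPM in WT-1 and at 14.7, 22.3 and 18.0 CPM in WT-2. Mut-1 gave 13.4, 19.9 and 18.7 CPM, and Mut-2 gave 14.8, 18.0 and 22.8 CPM. Both genotypes covered nearly the same range, and the log2 fold change was -0.15 (SE 0.15, 95% interval -0.48 to 0.19, adjusted p = 0.712 by edgeR). The sign turned to 0.11 with the 3 most feeder-rich libraries left out.

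Cabin1, whose product also inhibits calcineurin, lies at chr10:75646112-75764341 (-). It was at 97.5, 97.9 and 84.7 CPM in WT-1 and at 93.3, 96.9 and 90.1 CPM in WT-2. Mut-1 gave 70.3, 87.4 and 75.5 CPM, and Mut-2 gave 74.0, 86.9 and 99.6 CPM. Mut-2 replicate 3 was the highest library of all, while 3 mutant libraries lay below every wild-type library and the other 2 within the wild-type range. Line totals gave 93.7 ± 0.240 CPM against 81.4 ± 6.82 CPM and a log2 fold change of -0.20 (SE 0.11, 95% interval -0.46 to 0.05, adjusted p = 0.471 by edgeR). It was -0.11 with the feeder share in limma-voom and -0.047 with the 3 most feeder-rich libraries left out. Cabin1 had the smallest spread of the 9 over the libraries, with a highest value 1.42 times the lowest.

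Ubn1, the subunit that contacts H3.3, lies at chr16:5050057-5086289 (+). It had the largest spread of the 9 over the libraries, 2.38 times from lowest to highest. It was at 30.0, 33.6 and 57.8 CPM in WT-1 and at 50.5, 43.5 and 71.5 CPM in WT-2. Mut-1 gave 49.6, 53.8 and 61.6 CPM, and Mut-2 gave 45.1, 44.4 and 39.3 CPM. The lowest and the highest values were both wild type, and the genotype difference was 0.03 on the log2 scale (SE 0.17, 95% interval -0.36 to 0.43, adjusted p = 0.960 by edgeR). Mut-1 against WT-1 gave 0.44, with 0.27 to 0.79 when 1 library was left out (0.27 without WT-1 replicate 1 and 0.79 without WT-1 replicate 3). Mut-2 against WT-2 gave -0.36, with -0.51 to -0.13 when 1 library was left out (-0.13 without WT-2 replicate 3). The difference between these pairs was 0.80 (SE 0.33, unadjusted p of 0.0286, adjusted p = 0.578 by edgeR), and in that test 0.0726% of genes were called.

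By line, 4 of the 9 genes had both mutant totals below both wild-type totals, namely Atrx, Asf1b, Hira and Cabin1, and none had both above. Over all genes tested 21.8% were lower in this sense and 23.8% higher.

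H3f3a, 1 of the pair of H3.3 genes, was the steadiest between lines. It lies at chr1:180800832-180813943 (-) and overlaps the opposite-strand Gm17275, which held 60 to 136 counts, and H3f3aos, which held 0 to 11. It was at 125, 128 and 123 CPM in WT-1 and at 107, 121 and 133 CPM in WT-2. Mut-1 gave 106, 127 and 145 CPM, and Mut-2 gave 104, 119 and 152 CPM. The line totals of 126, 120, 124 and 124 CPM differed by far less than the libraries within WT-2, Mut-1 or Mut-2. The genotype difference was 0.01 on the log2 scale (SE 0.10, 95% interval -0.22 to 0.24, adjusted p = 0.971 by edgeR).

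H3f3b lies at chr11:116021912-116027962 (-), and its RNA was high in 1 mutant line, Mut-1. It was at 1010, 990 and 1540 CPM in WT-1 and at 909, 966 and 1201 CPM in WT-2. Mut-1 gave 1526, 1674 and 1981 CPM, and Mut-2 gave 1071, 1278 and 926 CPM. WT-1 replicate 3 lay just above the lowest Mut-1 library, and Mut-2 lay within the wild-type range. The line means were 1107 ± 123 CPM in wild-type and 1404 ± 432 CPM in mutant lines (SD, n = 2 lines each). The genotype difference was 0.34 on the log2 scale (SE 0.20, 95% interval -0.11 to 0.79, adjusted p = 0.495 by edgeR), and without Mut-1 it was -0.01. Without Mut-2 it was 0.63 and passed (adjusted p = 0.0319 by edgeR, 0.475% of genes called), so each mutant line in turn decided the value.

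The ratio of H3f3b to H3f3a counts set Mut-1 apart from the other lines. From line totals it was 9.47 and 8.5 in the wild-type lines, 13.8 in Mut-1 and 8.88 in Mut-2. In the libraries of Mut-1 it was 14.4, 13.2 and 13.7, above every other library. WT-1 replicate 3 came nearest, at 12.5, and Mut-2 replicate 3 was lowest, at 6.09. Both H3.3 genes together took 0.102% to 0.204% of the counts of a library.

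Within pairs of lines, compared over libraries, none of the 9 was called. In Mut-1 against WT-1 edgeR called 0 of 9 and 0.327% of 16533 genes, and in Mut-2 against WT-2 0 of 9 and 0.925%. Between the wild-type lines it called 0 of 9 and 0.0181%, and between the mutant lines 0 of 9 and 0.26%. At an unadjusted p under 0.05 it marked Asf1b as lower (with 4.81% of genes) and H3f3b as higher (6.47%) in Mut-1 against WT-1. It marked Asf1b as lower in Mut-2 against WT-2 (5.45%) and H3f3b as lower in Mut-2 against Mut-1 (3.65%). It marked none of the 9 between the wild-type lines, where 7.61% of genes were marked in either direction. With the replicate block, 314 genes were called in Mut-2 against WT-2 in place of 153, 8 in place of 3 between the wild-type lines and 68 in place of 43 between the mutant lines, and none of the 9 was among them. The median log2 fold change of the 9 was -0.22, 0.01, -0.17 and 0.01 in these 4 comparisons, against 0.02, -0.00, 0.01 and 0.02 over all genes.

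Asf1b was at -0.63 for Mut-1 against WT-1 (SE 0.18, adjusted p = 0.222 by edgeR) and at -0.44 for Mut-2 against WT-2 (SE 0.18, adjusted p = 0.257). The crossed pairs, which reuse the same libraries, gave -0.67 for Mut-2 against WT-1 and -0.40 for Mut-1 against WT-2. The numbered pairs differed from each other by -0.19 (SE 0.25, adjusted p = 0.843). Within genotypes Asf1b differed by less, -0.23 between the wild-type lines and -0.04 between the mutant lines. H3f3b was at 0.55 for Mut-1 against WT-1 (SE 0.19, adjusted p = 0.348) and at 0.09 for Mut-2 against WT-2 (SE 0.19, adjusted p = 0.872), and the difference between these pairs was 0.46 (SE 0.27, adjusted p = 0.669). Its largest difference within a genotype was between the mutant lines, -0.66 for Mut-2 against Mut-1 (SE 0.19, unadjusted p of 0.00432, adjusted p = 0.418). With no filter on low counts both passed in Mut-1 against WT-1, Asf1b at -0.64 (adjusted p = 0.0407) and H3f3b at 0.55 (adjusted p = 0.0279), where 1.72% of genes did. H3f3b then also passed in Mut-2 against Mut-1, at -0.67 (adjusted p = 0.00354), where 0.853% did. The other 7 genes, Ubn1 among them, were not marked at an unadjusted p under 0.05 in any of these 4 comparisons.

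Leaving out WT-1 replicate 3 changed the calls in Mut-1 against WT-1. Without it WT-1 was left with its 2 closest libraries, and 3 of the 9 were called where 2.64% of genes were. Asf1b was then at -0.79 (adjusted p = 0.0314), H3f3b at 0.79 (adjusted p = 0.0413) and Ubn1 at 0.79 (adjusted p = 0.0491) by edgeR. In that library Asf1b and Daxx were low and H3f3b and Ubn1 high beside the other 2 of WT-1.

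The library number also moved with some of the 9 genes, in a comparison added after the values were seen. With the line in the fit, Asf1a was higher in the libraries numbered 3 than in those numbered 1 by 0.67 on the log2 scale (SE 0.14, adjusted p = 0.0433 by edgeR). It was 1 of 9 called, where 1.51% of genes were called. H3f3a was at 0.34 (SE 0.10, adjusted p = 0.0986), and Asf1b, at -0.11 (SE 0.15, adjusted p = 0.721), did not pass. Between the libraries numbered 2 and 1 edgeR called none of the 9 and 0% of the genes.

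Across the 12 libraries the 9 genes varied in different ways. Of 36 pairs among them, the highest correlations of log2(CPM + 0.5) were 0.855 for Asf1a and H3f3a and 0.809 for Daxx and Hira. The lowest were -0.672 for H3f3b and Cabin1 and -0.659 for Daxx and Ubn1. These are descriptions over libraries that share lines and replicate numbers. Among 9449 genes of at least 10 CPM, the genes most like Asf1b were Pif1 (r = 0.929), which encodes a DNA helicase, the homeobox gene Hhex (0.925) and the Mediator subunit gene Med18 (0.914). Those most like H3f3b were Bscl2 (0.967), Tmco1 (0.965) and the amino acid transporter gene Slc7a1 (0.949). For Atrx they were Cdc73 (0.944), Dcun1d1 (0.942) and Zdbf2 (0.940), and for Daxx Rbfa (0.954), Zbtb45 (0.951) and Rbm10 (0.929). For Asf1a they were Mrps14 (0.977), Rnf4 (0.972) and Ptpa (0.964), and for H3f3a Ppp2r2d (0.960), Cdk2ap1 (0.946) and Platr17 (0.942). For Hira they were Mrpl46 (0.970), Ddx18 (0.967) and Emg1 (0.963). Cabin1 was most like Polr2k (0.983), Rrp1 (0.980) and Smpd4 (0.976), and Ubn1 most like the elongation factor gene Eef2 (0.961), Crybg2 (0.959) and Acss1 (0.958).

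Other genes of the same pathways were read from lists. None passed the adjusted test for genotype, which 0 of 18749 genes passed. Of 13 further genes for H3.3 deposition or ATRX-DAXX partners, 9 were below 0 and 4 above, with a median log2 fold change of -0.12. Over all genes tested, 50.2% were below 0. Cbx3, a heterochromatin protein 1 gene, was at 170 ± 0.618 CPM in wild-type and 139 ± 0.258 CPM in mutant lines (SD, n = 2 lines each), with a log2 fold change of -0.29 and an adjusted p of 0.289 by edgeR. Sp100, a PML body gene, was at 1.46, 1.44 and 1.81 CPM in WT-1, WT-2 and Mut-1 and at 6.09 CPM in Mut-2 (adjusted p = 0.304). Dek, an H3.3 chaperone gene, was at -0.19 (adjusted p = 0.478).

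Of 13 genes that supply H3-H4 to replicating chromatin, 11 were below 0 and 2 above (median -0.20), where 50.2% of all genes were below 0. Chaf1a and Chaf1b, the large and middle subunits of CAF-1, were at -0.29 (adjusted p = 0.324) and -0.26 (adjusted p = 0.345) by edgeR. Ipo4, an importin for H3-H4, was at 0.49 (adjusted p = 0.269), and it was called higher in Mut-2 against WT-2 at 0.85 (adjusted p = 0.0484). Ipo4 lies on chromosome 14, as does Supt16, a FACT subunit gene at 0.29 (adjusted p = 0.386), and the median of 384 genes on that chromosome was 0.41 higher in the mutant lines than that of the other autosomes. None of the 9 genes described here lies on chromosome 14. Of 10 other histone chaperone genes 8 were below 0 and 2 above (median -0.10), among them Ssrp1, the FACT partner of Supt16, at -0.26 (adjusted p = 0.397), and Set at -0.17 (adjusted p = 0.526).

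All 19 S-phase genes tested were below 0, with a median of -0.27, where 50.2% of all genes were below 0. Of the 19, 11 were below at an unadjusted p under 0.05 by edgeR, where 3.88% of all genes were. The list was chosen with earlier results of these data known, so these counts are a description only. Cdc6, which loads the replicative helicase, was at 72.7 ± 3.52 CPM in wild-type and 52.5 ± 1.71 CPM in mutant lines (SD, n = 2 lines each), with a log2 fold change of -0.47 and an adjusted p of 0.188 by edgeR. Pola2, a subunit of DNA polymerase alpha, was at -0.39 (adjusted p = 0.223), and the licensing factor gene Cdt1 at -0.42 (adjusted p = 0.246). Beside these, all 30 feeder markers had a log2 fold change above 0 (median 0.57), 28 of them at an unadjusted p under 0.05, where 9.17% of all genes were. Of 10 pluripotency markers 7 were below 0 (median -0.06), 1 of them at that p. Of the endoderm markers 9 of 10 were above 0 (median 0.53) and 5 at that p, and all 5 blood markers tested were above 0 (median 0.73) and 3 at that p. The endoderm list shares Pdgfra with the feeder list, and its Gata4 and Sox7 lie on chromosome 14. Whether endoderm cells differed was not tested. In bulk RNA, fewer cells of a type and less RNA per cell cannot be told apart. For Asf1b the fit with the feeder share is given above, and the part of the cell mixture in the S-phase values was not tested. Of 12 replication-coupled H3 genes 10 were in the table, 7 above and 3 below 0 (median 0.17). They were at low levels, such as Hist1h3b at 1.06 ± 0.129 CPM in wild-type and 1.89 ± 0.677 CPM in mutant lines.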

How the data were processed

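The authors deposited raw read counts per gene for 12 libraries of 4 lines. In the submitters' processing notes GRCm38 is the build, and the tools are HTSeq 0.6.0, HISAT2 2.1.0, Bowtie2 2.2.3 and bcl2fastq, with no role for each. Annotation and strand setting: not given in the sources used here.

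Counts were summed per line for the genotype test, and 12 libraries in 4 line groups were fitted for pairs of lines. Both used edgeR 4.0.16 (R 4.3.3) with TMM, filterByExpr, the quasi-likelihood test and Benjamini-Hochberg adjustment over all genes tested, called at 0.05. Standard errors were derived from the log2 fold change and the F statistic. Alternatives were DESeq2 1.42.0, RLE scaling, no filter, 12-library fits with limma 3.58.1 or edgeR, and left-out lines or libraries. Scripts were tested on simulated data. The crossed pairs, the difference of the pairs and the replicate number contrasts were added after the values were seen. The genes and the lists were chosen with earlier results of these data known.

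Named genes were the 9, Tinf2, the 3 of smallest p in each list (the feeder, endoderm, pluripotency and blood lists are given by counts only), and the 3 most correlated with each of the 9, predicted genes passed over. Pdgfra, Gata4 and Sox7 are named besides, for their list or chromosome. Lengths are unions of GENCODE M21 exons, matched by symbol for all 9. Promoters are from RefSeq (GRCm38.p6), matched by symbol for all 9, and coding sequences from GENCODE. Counts of a library limit its precision by counting error only. Same-number libraries deviated together (correlations of 0.114 to 0.695) between WT-2 and Mut-2. They did so too between the wild-type lines (0.194 to 0.621) and between the mutant lines (0.139 to 0.493). Correlations were 0.288 to 0.404 between WT-2 and Mut-1, -0.130 to 0.217 between WT-1 and Mut-1, and negative between WT-1 and Mut-2 (-0.288 to -0.105). No label explains this pattern. Values for libraries of different numbers are not given here, so whether the numbers pair the libraries was not tested.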

Additional observations from a re-analysis of the deposited data

How the results depend on the processing

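For genotype on line totals, where 0 genes were called, 1 was called with RLE scaling, 77 with no filter, 360 with DESeq2, 387 with edgeR on 12 libraries, 559 with that fit and a replicate block, 226 with limma-voom and 35 with limma-voom and the feeder share. Of the 9 genes 1, Asf1b, was called with DESeq2, edgeR on 12 libraries, the replicate block and limma-voom. In limma-voom the estimated correlation within lines was near 0, so libraries counted nearly as independent samples there. The edgeR fits on 12 libraries also count them as independent. Over 24 alternatives Asf1b kept its sign, between -0.66 and -0.41, with adjusted p from 0.0362 to 0.689.

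Genes called in pairs of lines with no filter, DESeq2 and the replicate block were 543, 193 and 87 for Mut-1 against WT-1 (54 in the fit reported), 966, 657 and 314 for Mut-2 against WT-2 (153), 201, 65 and 8 for WT-2 against WT-1 (3), and 270, 123 and 68 for Mut-2 against Mut-1 (43). With no filter 2 of the 9 were called in Mut-1 against WT-1 and 1 in Mut-2 against Mut-1; the block changed no call of the 9 in pairs of lines. Without the 3 most feeder-rich libraries 1 gene was called in Mut-2 against WT-2 and 1 in Mut-2 against Mut-1, with 1 library left of Mut-2, assumed to vary like the other lines.

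Leaving out each line or library, the genes called ran from 0 to 158 for genotype (158 without Mut-1, 92 without Mut-2), 16 to 447 for Mut-1 against WT-1 (447 without WT-1 replicate 3), 9 to 234 for Mut-2 against WT-2 (9 without Mut-2 replicate 2), 0 to 42 for WT-2 against WT-1 (42 without WT-1 replicate 3) and 3 to 70 for Mut-2 against Mut-1 (3 without Mut-2 replicate 2). Of the 9, 0 to 1 were called for genotype and 0 to 3 for Mut-1 against WT-1.

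Signs turned for small differences. For genotype, Asf1a and Hira were at 0.18 and 0.082 with the feeder share in limma-voom and at 0.19 and 0.11 without the 3 most feeder-rich libraries, and H3f3a was at -0.0063 with no filter and -0.0020 with DESeq2. Leaving out lines or libraries gave -0.25 to 0.10 for Asf1a, -0.066 to 0.091 for H3f3a, -0.013 to 0.63 for H3f3b and -0.15 to 0.25 for Ubn1. Without the 3 most feeder-rich libraries Asf1b was at 0.094 in Mut-2 against Mut-1 and H3f3b at -0.16 in Mut-2 against WT-2. Leave-one-out ranges were -0.21 to 0.072 for Asf1b in Mut-2 against Mut-1, and for H3f3b -0.061 to 0.22 in Mut-2 against WT-2 and -0.33 to 0.035 in WT-2 against WT-1. Of 408 values of the other 6 genes in pairs of lines, 57 turned sign and 0 of these were called. Where a value changed, the cause was not tested.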
